A study of Labeotropheus fuelleborni x Mchenga conophoros and Petrotilapia nigra x Mchenga conophoros and Petrotilapia nigra x Aulonocara baenschi with 10 samples.

Results

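The 4 genes described here, which handle the inhibitory transmitter GABA, were followed in brains of F1 hybrid males from Lake Malawi cichlids. They were 2 loci annotated as GABA-A receptor subunit beta-2 (LOC101465541 and LOC101464081), the GABA transporter gene slc6a11, and abat, which encodes GABA transaminase. The genes were chosen by name and function from the study's published list of genes that differed between contexts, so they had already been picked out on these same samples. They are 4 of the 32455 loci counted and 4 of the 7733 genes with enough counts to be tested.

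GABA is the main fast inhibitory transmitter of the vertebrate brain. It opens GABA-A receptors, chloride channels built of several subunits, of which beta subunits take part in binding GABA. Transporters of the SLC6 family clear it from the extracellular space into neurons and glia, and GABA transaminase begins its breakdown in mitochondria by passing its amino group on to make glutamate. In glia, glutamine synthetase turns glutamate into glutamine, which returns to neurons as a source of both glutamate and GABA.

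Whole brains were taken from males during courtship and sequenced 1 male per library, with 10 males in 3 groups. Lone males (n = 2) were tested without another male and courted over rock. Social sand males (n = 4) courted over sand while their brother held the rock side of the same tank, and social rock males (n = 4) were those brothers. The sample titles mark social sand males SUB and social rock males DOM, so these labels coincide with context. The paper holds that its data seem not to follow a model of dominant and subordinate males. All males were hybrids of a rock-dwelling father and a sand-dwelling mother, and brothers of a dyad came from a single brood.

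The crosses of the dyads were MZ_TI (Maylandia zebra with Tramitichromis intermedius), Petro_AB (Petrotilapia nigra with Aulonocara baenschi), Petro_MC (Petrotilapia nigra with Mchenga conophoros) and LF_MC (Labeotropheus fuelleborni with Mchenga conophoros). The lone males were a further brother of the LF_MC brood and a male of MZ_MC (Maylandia zebra with Mchenga conophoros). Each cross is thus a single brood, and males of a brood are not independent. The fit used for the reported values treats the males as separate, without a block for brood. By the study's account the social rock brother was the larger of each dyad, so body size and context cannot be told apart.

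Libraries held 375132 and 457974 counts in lone males, 206320 to 335551 in social sand males and 492489 to 694114 in social rock males. Every social sand library was therefore shallower than every social rock library, and a difference in depth moves with the contrast. Fewer genes had any count in social sand libraries, 11357 to 13199, against 15483 to 16629 in social rock and 15776 and 15827 in lone males. The Petro_MC social sand library, with 335551 counts, had 13199 such genes, and the lone LF_MC library, with 375132, had 15827. What part this plays in the differences below was not tested. Levels are given as CPM, the usual depth-scaled count of a gene, with library totals scaled by TMM. A gene was called at an edgeR adjusted p (Benjamini-Hochberg, over all genes tested) under 0.05 and a fold of at least 2. Differences are social sand over social rock, lone over social sand, or lone over social rock, on the log2 scale.

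All 4 genes were lower in social sand than in social rock brains. Called lower were 4 of 4, LOC101465541 with 0 counts in social sand among them, against 3.14% of all genes tested. The median log2 difference of the 4 genes was -2.19, against -0.07 over all genes tested. The CPM ranges of the contexts did not overlap for any of the 4, as for 8.97% of all genes in that direction. The 4 genes had been selected on the same contrast, so these counts describe them and are not independent evidence of the direction.

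**Figure D1:**
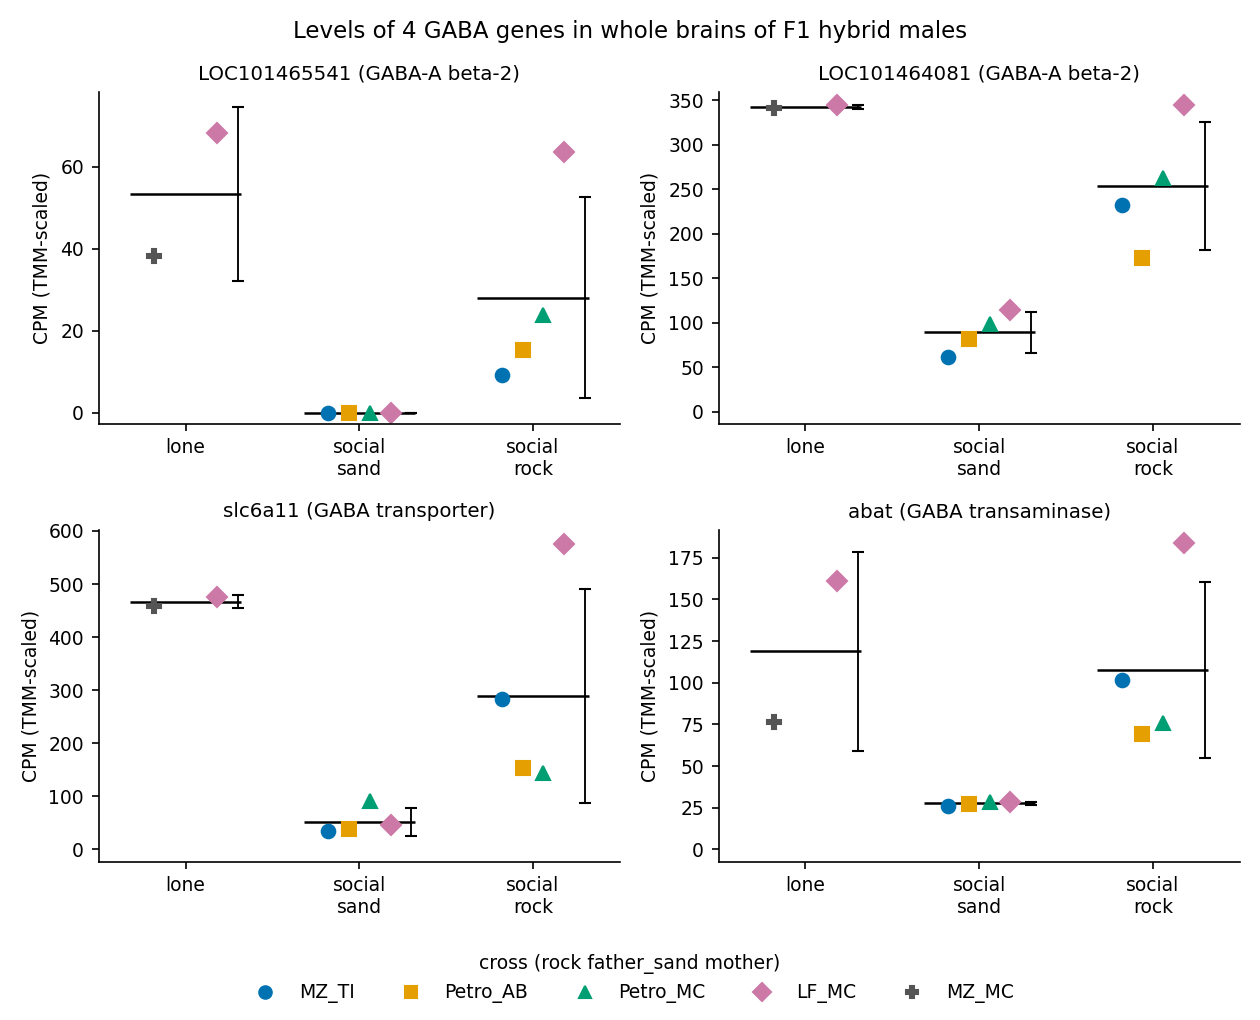
Level of each of the 4 GABA genes (y axis, TMM-scaled CPM, linear) in the 10 brains by group (x axis), with 1 symbol per male and its shape marking the cross. Lines are group means and bars are SD (n = 2 lone, 4 social sand, 4 social rock). The 4 social sand brains lie below all other brains in every panel, and LOC101465541 is at 0 in all 4.

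The GABA-A receptor subunit gene LOC101465541 (gene11444 in the count table) had no counts in any social sand brain. Social sand males had 0 counts in all 4 libraries, against 5 in MZ_TI, 9 in Petro_AB, 11 in Petro_MC and 36 in LF_MC social rock males. In CPM, social rock brains held 9.23 in MZ_TI, 15.2 in Petro_AB, 23.9 in Petro_MC and 63.7 in LF_MC. Its level was thus at least 8.78-fold lower in social sand brains than the social rock mean of 28.0 ± 24.5 CPM (SD, n = 4). That bound takes 3 counts over the 4 social sand libraries as the limit that a count of 0 allows, or 3.19 CPM. It covers counting error in those libraries and not the spread between males. Without the LF_MC social rock male the bound was 5.05-fold. LOC101465541 could pass the low-count filter only through its counts in social rock and lone males, so it had to differ to be tested, and its edgeR adjusted p (0.0249 in social sand against social rock) adds nothing to the bound.

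Depth limits what a 0 means for this gene in any single brain. In the social sand libraries 3 counts correspond to 13.1 CPM in MZ_TI, 16.4 in Petro_AB, 10.6 in Petro_MC and 12.3 in LF_MC. The level of the social rock MZ_TI male, 9.23 CPM, lies below each of these, so a 0 in a single social sand library still allows a level like it.

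The second GABA-A beta-2 gene, LOC101464081 (gene1535), was detected in every brain and differed by the smallest step of the 4. Its levels in social sand males were 61.0 CPM in MZ_TI, 82.1 in Petro_AB, 98.5 in Petro_MC and 114.6 in LF_MC. In social rock males they were 232.5 CPM in MZ_TI, 172.2 in Petro_AB, 262.8 in Petro_MC and 344.9 in LF_MC. The highest social sand brain stayed below the lowest social rock brain. Means were 89.0 ± 22.9 CPM in social sand and 253.1 ± 71.9 CPM in social rock (SD, n = 4 each). The log2 difference of LOC101464081 was -1.50 ± 0.30 (SE, edgeR adjusted p = 0.0140). These values rest on 14 to 28 counts per social sand library and 102 to 195 per social rock library.

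The transporter gene slc6a11 (gene5236) encodes a carrier that, in mammals, takes GABA up mainly into astrocytes. The study's gene table gives human SLC6A13, another GABA transporter, as its counterpart, so which mammalian carrier it matches was not settled here. Its levels in social sand males were 34.8 CPM in MZ_TI, 38.3 in Petro_AB, 91.4 in Petro_MC and 45.0 in LF_MC. Social rock males held 284.2 CPM in MZ_TI, 153.6 in Petro_AB, 143.3 in Petro_MC and 574.9 in LF_MC. The Petro_MC social sand male stood above its group and the LF_MC social rock male far above its own, yet the contexts did not overlap. Means were 52.4 ± 26.4 CPM in social sand and 289.0 ± 201.1 CPM in social rock (SD, n = 4 each). The log2 difference of slc6a11 was -2.43 ± 0.45 (SE, edgeR adjusted p = 0.0105). The counts behind it were 7 to 26 per social sand library and 66 to 325 per social rock library.

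The catabolic gene abat (gene3472) had nearly the same level in all 4 social sand brains. These held 26.1 CPM in MZ_TI, 27.4 in Petro_AB, 28.1 in Petro_MC and 28.6 in LF_MC, against 101.5 CPM in MZ_TI, 69.2 in Petro_AB, 76.0 in Petro_MC and 184.0 in LF_MC social rock males. Means were 27.6 ± 1.09 CPM in social sand and 107.7 ± 52.7 CPM in social rock (SD, n = 4 each). The log2 difference of abat was -1.95 ± 0.43 (SE, edgeR adjusted p = 0.0205). Only 5 to 8 counts per social sand library lie behind the even levels, 26 over the group, with an exact 95% Poisson interval of 17.0 to 38.1 counts that covers counting error alone.

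The mean differences in CPM, social sand minus social rock, were -28.0 for LOC101465541, -164.1 for LOC101464081, -236.6 for slc6a11 and -80.1 for abat. They leaned on the LF_MC social rock male, without which they were -16.1 for LOC101465541, -133.5 for LOC101464081, -141.3 for slc6a11 and -54.7 for abat. In a whole brain, fewer cells that express a gene and less of its RNA per cell cannot be told apart.

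Within each of the 4 broods the social sand male lay below his social rock brother for every one of the 4 genes, as for 18.4% of all genes tested. For slc6a11 the social sand male was lower by a log2 CPM difference of -2.86 in MZ_TI, -1.87 in Petro_AB, -0.62 in Petro_MC and -3.53 in LF_MC. The LF_MC brothers were thus the farthest apart for slc6a11 and the Petro_MC brothers the nearest. For abat the differences were -1.77 in MZ_TI, -1.20 in Petro_AB, -1.29 in Petro_MC and -2.49 in LF_MC, again with the LF_MC brothers the farthest apart. For LOC101464081 they ran only from -1.85 in MZ_TI to -1.02 in Petro_AB, a narrower range than for the transporter.

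**Figure D2:**
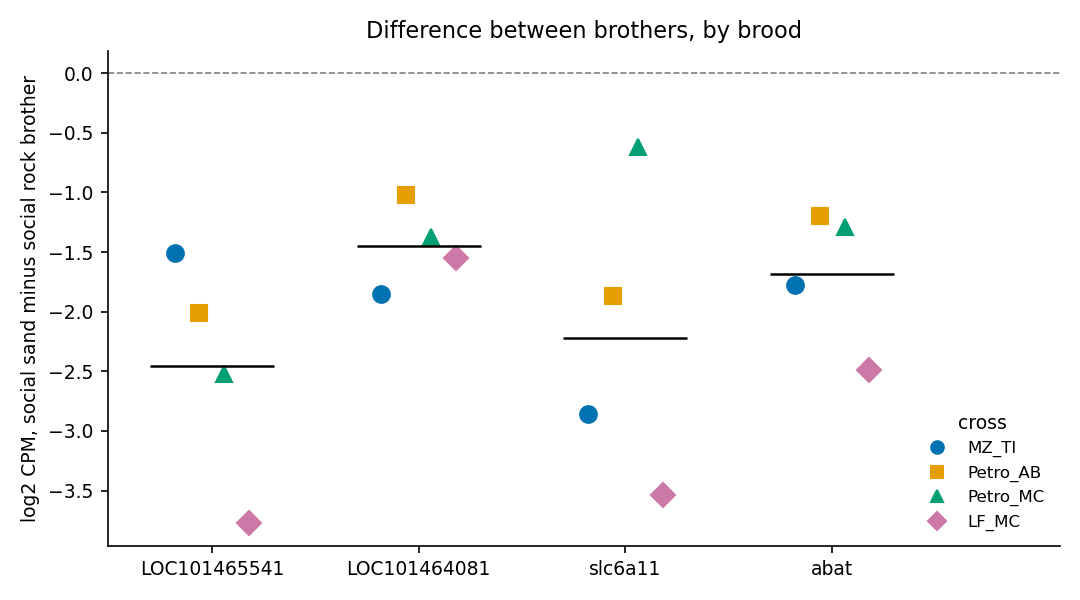
Difference in log2 CPM between brothers (y axis, social sand minus social rock, prior count 2) for each of the 4 genes (x axis), with 1 symbol per brood, a line at the mean of the 4 broods and a dashed line at 0. All 16 points lie below 0, and those of LOC101465541 depend on the prior count because the social sand brothers have 0 counts.

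These calls varied with the method and with single libraries. All 4 genes, LOC101465541 with 0 counts in social sand among them, were called with each library thinned to 206320 counts and with brood as a replicate block. Limma-voom, the kind of fit the paper used, called 0 of 4 (adjusted p of 0.0571 for LOC101464081, 0.0676 for slc6a11, 0.130 for abat and 0.234 for LOC101465541). With a filter of CPM above 1 instead, an alternative chosen after seeing the data, limma-voom called all 4, LOC101465541 among them. Over all genes that fit called 386 of 18068 lower. In the edgeR fit without both MZ_TI males 0 of 4 were called, against 7 of all 7506 genes tested called lower. Without the MZ_TI social sand male 1 of 4 was called (82 of 8024 lower), and without both Petro_MC males 1 of 4 (64 of 7465). That gene was slc6a11 each time. Without the LF_MC social rock male 2 of 4 were called (90 of 6725 lower), and without both LF_MC males 2 of 4 (100 of 7013). These were LOC101464081 and slc6a11 each time. Without both Petro_AB males all 4 were called, LOC101465541 among them (329 of 7379 lower). Over all genes, limma-voom called 25 of 7733 lower, thinning 236 of 4902 and the block 441 of 7733. The fit used for the reported values called 243 of 7733 lower.

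**Figure D3:**
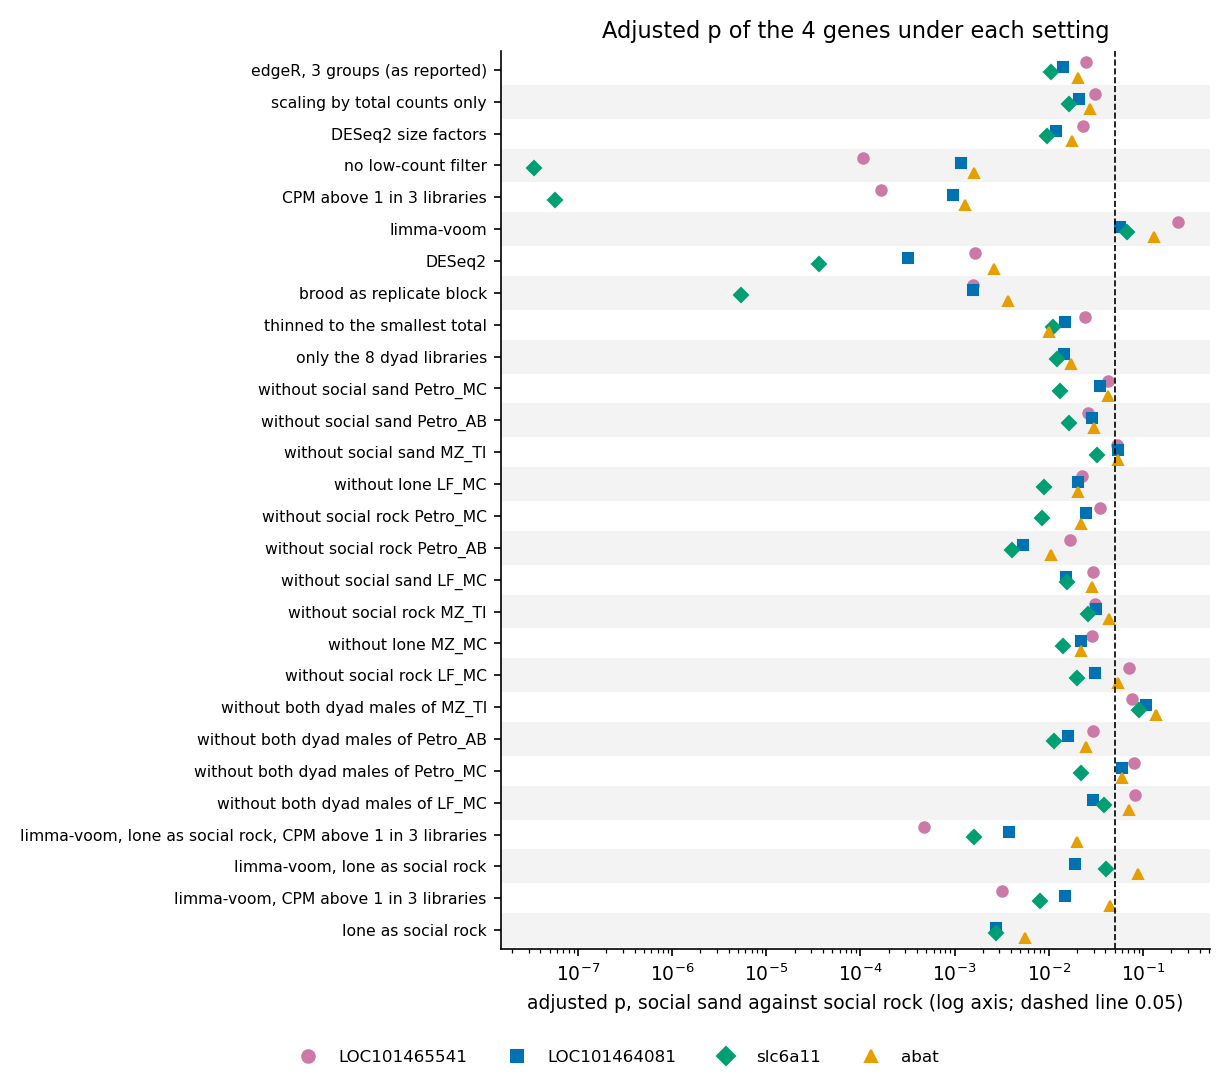
Adjusted p of each of the 4 genes for social sand against social rock (x axis, log scale, dashed line at 0.05) under each way of processing the counts (y axis), with the fit used for the reported values in the top row. LOC101465541 has no point in the rows where it did not pass the low-count filter. The 4 genes pass the line in most rows and all miss it under limma-voom on the same genes and without both MZ_TI males.

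Lone males, which courted over rock with no brother present, held all 4 genes above the social sand level. Called higher than in social sand were 4 of 4, LOC101465541 with 0 counts in social sand among them, against 6.96% of all genes tested. The median log2 difference was 2.60 for the 4 genes and 0.07 over all genes. The lone and social sand ranges did not overlap for any of the 4, as for 27.1% of all genes in that direction. The comparison shares its social sand libraries with that against social rock, so the 2 sets of values are not separate evidence.

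LOC101465541 had 28 counts in the lone LF_MC male and 18 in the lone MZ_MC male, or 68.3 and 38.3 CPM, against 0 in social sand. It was at least 16.7-fold lower in social sand brains than the lone mean. The gene could be tested only through its counts in social rock and lone males. Its edgeR adjusted p (0.0086 for lone over social sand) thus adds nothing to that bound. LOC101464081 stood at 344.0 and 340.6 CPM in the LF_MC and MZ_MC lone males, a mean of 342.3 ± 2.44 CPM (SD, n = 2), against 89.0 ± 22.9 CPM in social sand (SD, n = 4). Its log2 difference, lone over social sand, was 1.93 ± 0.35 (SE, edgeR adjusted p = 0.00444). The 2 lone brains were thus almost level for this receptor gene, on 141 counts in LF_MC and 160 in MZ_MC. They were apart for the other one, on 28 and 18 counts. Whether this contrast exceeds counting error was not tested.

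For slc6a11 the lone males held 475.8 CPM in LF_MC and 457.7 in MZ_MC, a log2 difference of 3.12 ± 0.50 over social sand (SE, edgeR adjusted p = 0.00308). For abat they held 161.0 CPM in LF_MC and 76.6 in MZ_MC, 2.09 ± 0.49 over social sand (SE, edgeR adjusted p = 0.0162). The lone brains were close to each other for the transporter and 1 of them was well above the other for the transaminase gene. Without the lone LF_MC male abat was no longer called (adjusted p = 0.242, the remaining lone male assumed to vary like the other groups). With brood as a replicate block 2 of the 4 were called, since LOC101464081 (adjusted p = 0.253) and abat (0.271) were not. That fit compares only the LF_MC lone male, because MZ_MC has no other male, and over all genes it called 44 higher, against 538 without the block. Limma-voom also called 2 of 4, LOC101464081 and slc6a11, with adjusted p of 0.0623 for LOC101465541 and 0.0709 for abat, and 227 higher over all genes.

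Between lone and social rock brains, both courting over rock, 0 of 4 genes were called. The background was 0% of all genes tested, with 275 genes at an unadjusted p under 0.05 in edgeR and 0 called by limma-voom and by DESeq2. Over all genes, edgeR called 52 with no low-count filter, 45 with a filter of CPM above 1 and 17 with brood as a replicate block, and 0 of the 4 genes in each. The log2 differences, lone over social rock, were 0.91 ± 0.73 for LOC101465541, 0.44 ± 0.34 for LOC101464081, 0.69 ± 0.47 for slc6a11 and 0.14 ± 0.45 for abat (SE, edgeR adjusted p of 0.970 for the first 3 genes and 0.986 for abat). The lone levels of LOC101464081, slc6a11 and abat lay inside the social rock ranges, and those of LOC101465541 overlapped them. With 2 lone males the intervals are wide, and equal levels are not shown.

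In order of level, the 4 social sand brains took the lowest 4 places for every gene. The LF_MC social rock male and its lone LF_MC brother took the first 2 places for every gene. LOC101465541 was highest in the lone LF_MC male and LOC101464081, slc6a11 and abat in the LF_MC social rock male. For LOC101464081 the first 3 brains, at 344.9, 344.0 and 340.6 CPM, differed by less than the social rock SD. Across the 6 rock-courting brains Pearson's r of log2 CPM between pairs of the 4 genes ran from 0.63 (LOC101464081 with abat) to 0.838 (the 2 beta-2 genes), given as a description of libraries that share cross and depth differences.

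The balance of the 2 beta-2 genes was read within each library, where scaling plays no part. LOC101465541 made up 16.6% of the counts on both beta-2 genes in the lone LF_MC male (28 of 169, exact Clopper-Pearson 95% interval 11.3 to 23.1%) and 10.1% in the lone MZ_MC male (18 of 178, 6.10 to 15.5%). In social sand males it made up 0 of 14 in MZ_TI, 0 of 15 in Petro_AB and 0 of 28 in each of Petro_MC and LF_MC. With 3 counts as the limit, these allow shares of up to 21.4%, 20.0% and 10.7%. In social rock males it made up 3.82% in MZ_TI (5 of 131, 1.25 to 8.68%), 8.11% in Petro_AB (9 of 111, 3.78 to 14.8%), 8.33% in Petro_MC (11 of 132, 4.23 to 14.4%) and 15.6% in LF_MC (36 of 231, 11.2 to 20.9%). The LF_MC brothers that courted over rock thus held the largest shares. The limits of the Petro_MC and LF_MC social sand males lie below the share of the LF_MC social rock male, but no single social sand limit lies below the shares of the other 3 social rock males.

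Summed over a group, LOC101465541 made up 46 of 347 beta-2 counts in lone males (13.3%, exact 95% interval 9.87 to 17.3%), 0 of 85 in social sand males and 61 of 605 in social rock males (10.1%, 7.80 to 12.8%). With 3 counts as the limit, the 0 of 85 allows a share of up to 3.53% (exact 95% upper limit 4.25%). Both lie below the social rock interval, which pools 4 males and takes 36 of its 61 counts from the LF_MC male. The share of the MZ_TI social rock male alone, 3.82%, lies between these 2 limits. The intervals cover counting error only, and the summed shares were added after the values had been seen. How fragments that align to both loci were counted is not given in the sources used here, so the split between these 2 genes is uncertain.

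**Figure D4:**
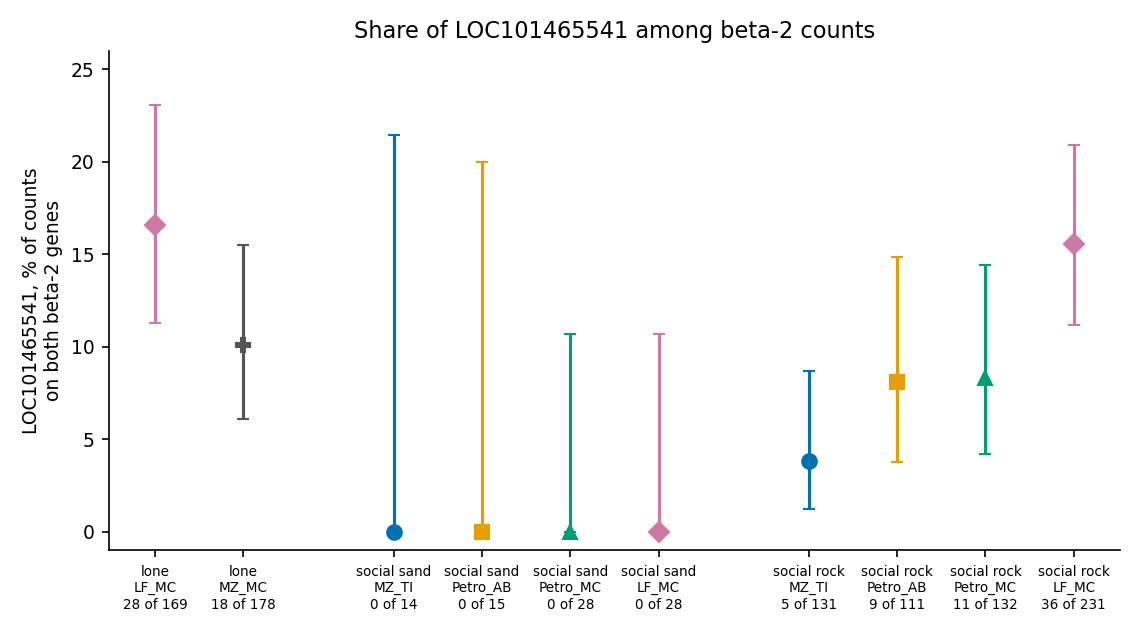
Share of LOC101465541 among the counts on both GABA-A beta-2 genes (y axis, percent) in each of the 10 libraries (x axis, grouped as lone, social sand and social rock, with the counts under each name). Bars are exact 95% binomial intervals, or, at 0 counts, reach up to the share that 3 counts would give. The share is 0 in the 4 social sand libraries, whose limits of 10.7 to 21.4% lie above 3 of the 4 social rock shares.

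Ratios between the 4 genes were tested within libraries, together with slc6a11 over slc1a2, the main glutamate uptake gene of astrocytes. Of 7 log2 ratios, 0 differed between contexts (exact permutation tests, smallest unadjusted p = 0.0571 for LOC101465541 over LOC101464081, smallest adjusted p = 0.25). With 4 males a group the smallest possible p is 0.0286, and several ratios would have to reach it for an adjusted p under 0.05. The ratio of LOC101465541 to LOC101464081 depends on the prior count, with a log2 difference of -1.005 at a prior count of 2 and -2.71 (adjusted exact permutation p = 0.0667) at 0.5. Its ratios to slc6a11 and abat did so too, at -0.23 and -0.77 with a prior count of 2. At 0.5 they were -1.89 and -2.39 (adjusted exact permutation p = 0.0667 each). The log2 ratio of slc6a11 to abat was 0.72 ± 0.55 in social sand and 1.26 ± 0.34 in social rock (SD, n = 4 each, exact permutation p = 0.143, adjusted 0.25). In counts slc6a11 over abat was 3.25 in the Petro_MC social sand male, against 1.33 to 1.57 in the other 3 social sand males and 1.89 to 3.13 in social rock males.

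The log2 ratio of slc6a11 to slc1a2 was -2.65 ± 0.97 in social sand and -2.51 ± 0.27 in social rock (SD, n = 4 each, exact permutation p = 0.83, adjusted 0.83). The Petro_MC social sand male again stood out, with 0.388 slc6a11 counts per slc1a2 count, against 0.0769 to 0.146 in the other social sand males and 0.140 to 0.216 in social rock males. The social sand values are spread widely, and a p that misses the threshold does not show that the ratios are equal.

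A wider list of genes of GABA and glutamine handling held 8 genes, all from the study's table and thus picked on these samples. Called lower in social sand than in social rock were 5 of 8, LOC101465541 with 0 counts in social sand among them, against 3.14% of all genes tested. The median log2 difference was -2.13, against -0.07 over all genes. Beyond the 4 genes above, the fifth was LOC101463785, glutamine synthetase. It held 26.1 to 87.9 CPM in social sand males, with a median of 79.9, and 103.0 to 350.2 CPM in social rock males, with a median of 189.2. Its log2 difference was -1.60 ± 0.41 (SE, edgeR adjusted p = 0.0406).

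The 3 list genes that were not called had few counts in social sand. LOC101487326, annotated as sodium-coupled neutral amino acid transporter 3, which carries glutamine in mammals, averaged 15.3 ± 18.5 CPM in social sand and 59.9 ± 33.9 CPM in social rock (SD, n = 4 each), with a log2 difference of -1.87 ± 0.66 (SE, edgeR adjusted p = 0.119). LOC101486789, an aldehyde dehydrogenase 9A1 gene whose mammalian enzyme can make GABA from an aldehyde, had 1 count over the social sand libraries and 49 over the social rock libraries. Scaled for depth, its ratio of social sand to social rock was 0.0469 with a counting interval of 0.00116 to 0.274 (edgeR adjusted p = 0.0862). The cell adhesion gene nlgn3 had 3 counts in social sand and 36 in social rock, a ratio of 0.191 with a counting interval of 0.0377 to 0.606 (edgeR adjusted p = 0.185). Against social sand, lone males had 5 of the 8 genes called higher, LOC101465541 among them, as were 6.96% of all genes tested. Against social rock 0 of 8 were called, as were 0% of all genes tested.

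**Figure D5:**
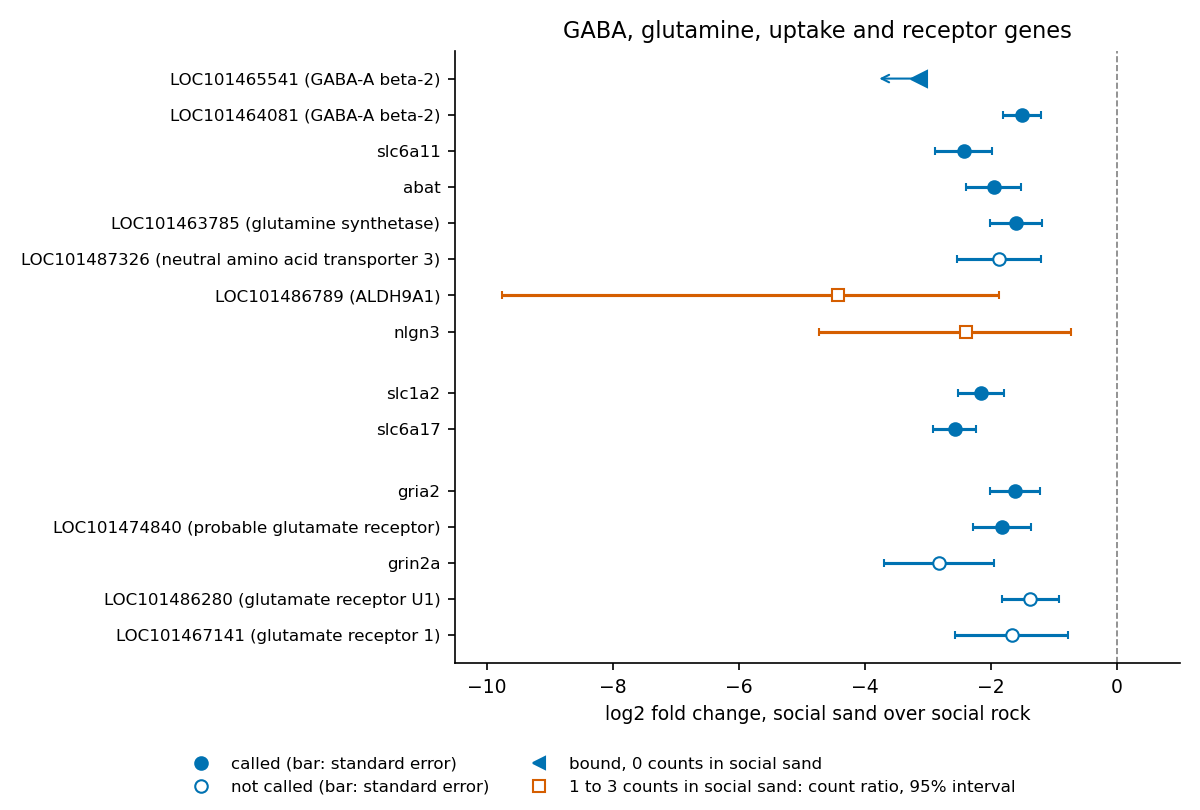
Difference between social sand and social rock (x axis, log2 fold change) for 8 GABA and glutamine genes, 2 other uptake genes and 5 tested glutamate receptor genes (y axis). Filled points were called, bars are SE, squares with 95% counting intervals mark genes with 1 to 3 counts in social sand, and the arrowhead is the bound for LOC101465541. Every point lies left of 0, with LOC101464081 nearer to 0 than slc6a11 and abat.

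Genes for uptake of other transmitters and amino acids were lower as well. The study's table, picked on these samples, named 3 genes of solute carrier families 6 and 1. Called lower in social sand were 3 of 3, slc6a11 among them, against 3.14% of all genes tested. The amino acid carrier of synaptic vesicles slc6a17 averaged 28.5 ± 2.37 CPM in social sand and 170.8 ± 44.5 CPM in social rock (SD, n = 4 each), a log2 difference of -2.57 ± 0.34 (SE, edgeR adjusted p = 0.00197). For slc1a2 the means were 354.8 ± 159.3 CPM in social sand and 1584 ± 840.1 CPM in social rock (SD, n = 4 each), -2.16 ± 0.36 (SE, edgeR adjusted p = 0.00662). The log2 difference of slc6a11 lay between those of slc1a2 and slc6a17 and within its SE of either.

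Receptors for other transmitters gave a mixed count. Of 6 such genes that the table named, again picked on these samples, 5 were tested. Called lower in social sand were 2 of 5, against 3.14% of all genes tested. They were gria2, an AMPA receptor subunit, at -1.61 ± 0.40 (SE, edgeR adjusted p = 0.0335), and LOC101474840, a probable glutamate receptor, at -1.82 ± 0.45 (SE, edgeR adjusted p = 0.0357). Not called were grin2a, an NMDA receptor subunit (-2.82 ± 0.88, edgeR adjusted p = 0.0777), LOC101486280 (-1.37 ± 0.45, adjusted p = 0.0936) and LOC101467141 (-1.67 ± 0.90, adjusted p = 0.282, SE throughout). Over the social sand libraries grin2a had only 4 counts. LOC101467141 had 7, all in the Petro_MC male. LOC101467181, a nicotinic alpha-7 subunit gene, had too few counts to be tested, with 2 counts over the social sand and 39 over the social rock libraries.

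Markers of several brain cell types moved with the same contrast. All 7 astrocyte and radial glia markers were called lower in social sand, with summed levels of 3806 to 4041 CPM in lone, 841 to 1322 CPM in social sand and 2095 to 5275 CPM in social rock males. Of 5 neuron markers 4 were called lower (summed 3202 to 4092 CPM in lone, 790 to 1435 CPM in social sand and 2012 to 3904 CPM in social rock males). Not called was snap25, the most abundant of them, with means of 696 CPM in social sand and 1326 CPM in social rock. Its log2 difference was -0.93 ± 0.29 (SE, edgeR adjusted p = 0.0821). All 3 myelin markers were called lower (summed 2523 to 3265 CPM in lone, 440 to 880 CPM in social sand and 1488 to 3393 CPM in social rock males). Of all genes tested, 3.14% were called lower in that contrast. Against social sand, lone males had 5 of 7 astrocyte, 5 of 5 neuron and 3 of 3 myelin markers called higher, against 6.96% of all genes tested. No marker was at 0 in any library, so the brains held neurons and glia in every group. These lists too hold only genes the study had called, and the astrocyte list shares slc1a2 and glutamine synthetase with the lists above. The part that these shifts play in the 4 GABA genes was not tested. In a single random draw that thinned each library to 206320 counts all 4 were still called, LOC101465541 with 0 counts in social sand among them. Thinning evens the totals only, and what part depth or the number of genes with any count plays was not tested.

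The genes most like each of the 4 were sought among 643 other named genes, by Pearson's r of log2 CPM over all 10 libraries. These values are dominated by the gap between social sand and the other brains, so r over the 6 rock-courting brains is given beside them. LOC101465541 was most like LOC101468157, neural cell adhesion molecule L1.1 (0.994, and 0.992 over 6 brains), LOC101467832, a coatomer subunit (0.992 and 0.982), and the splicing regulator tra2a (0.983 and 0.919). Like LOC101465541, both LOC101467832 and tra2a had 0 counts in social sand, so the prior count sets their log2 CPM there. LOC101464081 was most like LOC101471949, RNA-binding protein 5 (0.984 and 0.981), the neuronal membrane glycoprotein gene gpm6a (0.983 and 0.942), and LOC101474840 (0.978 and 0.955).

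For slc6a11 the nearest genes were eif3b, a translation initiation factor subunit (0.990 and 0.958 over 6 brains), LOC101463593, dynamin-3 (0.989 and 0.954), and the ubiquitin-conjugating gene ube2n (0.982 and 0.916). For abat they were tmem183a (0.984 and 0.919), the corepressor gene suds3 (0.973 and 0.847) and the protein kinase A subunit gene prkar1b (0.972 and 0.883). Over the social sand libraries tmem183a and suds3 had 0 counts and eif3b and ube2n had 2 each, so r over all 10 libraries depends on the prior count for them. None of the 12 was on the GABA and glutamine list, and 1, LOC101474840, was on the receptor list. The calcium pump gene atp2b2 is numbered next to slc6a11 in the count table and the annotated spans of the 2 genes do not overlap. Its log2 difference was -2.02 ± 0.51 (SE, edgeR adjusted p = 0.0375).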

How the data were processed

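Whole-brain mRNA of 10 F1 males was sequenced from TruSeq Stranded libraries. The authors filtered reads with the NGS QC Toolkit, aligned them to the genome MZ_UMD2a with TopHat2 2.0.9, handled alignments with SAMtools 0.19 and deposited raw counts per locus from HTSeq 0.6.1. EdgeR 3.6.8 stands in the submitters' processing notes as well. For its own test the paper scaled counts with edgeR and fitted them with limma-voom, at a fold of 2 or more and an adjusted p under 0.05. Which annotation release and strand setting served the counting, and how multiply aligned fragments were treated, is not given in the sources used here. Reads of a gene and of any antisense or near-identical locus thus cannot be told apart.

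The quasi-likelihood test of edgeR 4.0.16 (R 4.3.3) was run on these counts after filterByExpr (minimum 10 counts) and TMM scaling. A single fit held the 3 groups, without a block. Calls needed a fold of 2 or more and, over the 7733 genes kept, an adjusted p under 0.05. Log2 CPM used a prior count of 2. The SE of an edgeR log2 difference was derived from its test, as the absolute difference divided by the square root of the F statistic. Limma 3.58.1 (voom), DESeq2 1.42.0, other scalings and filters, thinning (a single random draw), a brood block and left-out libraries or broods served as alternatives. Exact tests used scipy 1.17.1 and figures matplotlib 3.10.9. The fitting code was tested on simulated data. Males are separate animals, but each cross is 1 brood.

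The series' description says that males of a cross are siblings of a brood, so brood pairs the libraries. Deviations of brothers from their group means correlated across genes at 0.126 in MZ_TI, 0.197 in Petro_AB, 0.0666 in Petro_MC and 0.213 in LF_MC.

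The count table carries gene numbers. Names came from the study's published table of differentially expressed genes (812 rows used), so lists hold only genes the study had called. Named were the 4 genes, all list genes, the 3 named genes most like each of the 4, and named neighbours in the numbering. The members and lists were chosen with earlier results of these data known. Levels per transcript length were planned but not computed, since no lengths were used here, so levels are not compared between genes. For the same reason no sequences are shown.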

Additional observations from a re-analysis of the deposited data

How the results depend on the processing

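In social sand against social rock, the 4 genes kept their direction under each alternative that tested them. Called were 4 of 4 under total-count scaling, DESeq2 size factors, no low-count filter, a filter of CPM above 1, DESeq2, thinning and brood as a replicate block (block adjusted p of 0.00157 for LOC101464081, 5.42e-06 for slc6a11 and 0.00366 for abat). LOC101465541, with 0 counts in social sand, is counted in each 4 of 4, and its calls add nothing to its bound. Fits on the 8 dyad libraries alone and edgeR with lone males counted as social rock called 3 and did not test LOC101465541. Limma-voom called 0 of the 4 and 0 of the 8 list genes. With lone males counted as social rock, an alternative chosen after seeing the data, it called 2 of the 3 genes tested (LOC101465541 was not) and 2 of the list, and 4 of 4 and 8 of 8 with the CPM filter added. With the CPM filter and lone males kept as their own group, also chosen after seeing the data, it called 4 of 4. Leaving out 1 library gave 1 to 4 of the 4 and 1 to 6 of the 8. Without both males of a brood, the counts were 0 and 0 for MZ_TI, 1 and 1 for Petro_MC, and 2 and 2 for LF_MC. For Petro_AB all 4 genes stayed called. In lone against social sand, limma-voom and the paired fit with brood as a replicate block each called 2 of 4, and leaving out 1 library 3 to 4. The exact permutation p of CPM, 0.0286 for each of the 4 genes, follows from ranges that do not overlap and is no further evidence. With brothers paired by sign flips, or with 1 library left out, 0 of 4 could pass, since the smallest p are then 0.125 and 0.0571. The same limits hold for the 7 ratios. The cause of the lost calls was not tested.

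Over all genes, edgeR called 268 between social sand and social rock, limma-voom 29, DESeq2 498, the block 507, no filter 627 of 22617 and the CPM filter 624 of 18068. Without both males of a brood edgeR called 7 for MZ_TI, 64 for Petro_MC, 109 for LF_MC and 372 for Petro_AB. It called 89 without the MZ_TI social sand male, 94 without the LF_MC social rock male and 128 without the MZ_TI social rock male. Without the Petro_MC social sand male it called 162, and without the Petro_AB social rock male 468. Scaling by total counts moved the median log2 difference of all genes to -0.24, against -0.07, and the calls to 246 lower and 8 higher, against 243 and 25. For any gene, 3 counts in a social sand library stand for 10.6 to 16.4 CPM. Leaving out 1 library gave bounds of 5.05- to 10.7-fold for LOC101465541 against social rock and 11.7- to 21.4-fold against lone males, chosen after seeing the data.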
